A study of Saccharomyces cerevisiae with 3 samples.

Results

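Calcineurin, the phosphatase that answers to calcium, and the calcium pumps and exchangers it works with were followed in budding yeast short of Hal3 and Vhs3. The set held 9 genes, taken by systematic name out of 6212 listed on the arrays: YLR433C (CNA1), YML057W (CMP2), YKL190W (CNB1), YNL027W (CRZ1) and YKL159C (RCN1) of the pathway, YGL006W (PMC1), YGL167C (PMR1) and YDL128W (VCX1) of calcium transport, and YGR032W (GSC2, also called FKS2), a target of Crz1. The mutant was tetO:HAL3 vhs3::URA3 and its reference the wild type, both of JA100 background. In the mutant URA3 takes the place of VHS3, and HAL3 is read from a tetO promoter that doxycycline shuts. Both strains had 15 h at 28 °C in synthetic complete medium containing 100 µg/ml doxycycline, so the drug was common to mutant and wild type. RNA of both was hybridised together on each of 3 arrays with 2 colours: a dye-swap pair for biological replicate 1, and for replicate 2 a single array, which had the mutant in Cy5. The number of mutant clones is not given in these sources.

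Cytosolic calcium is kept low in yeast by transport into the vacuole and the Golgi. When it rises, calmodulin activates calcineurin, a heterodimer of a catalytic subunit (Cna1 or Cmp2) and the regulatory subunit Cnb1, and calcineurin dephosphorylates the transcription factor Crz1, which then enters the nucleus and raises genes such as PMC1, RCN1 and GSC2. Hal3 and Vhs3 inhibit the phosphatase Ppz1, and Ppz1 and calcineurin are both known to act on salt tolerance and on the sodium pump gene ENA1.

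Values are log2 ratios of mutant over wild type, with the median of each array set to 0. The sources used here do not name the numerator channel. Both arrays of the dye-swap pair ran the same way as deposited, so the labelled dyes alone do not settle the direction. Mutant over wild type is the likely reading because VHS3 and HAL3 were then low on the dye-swap pair, at −2.06 and −2.50 and at −1.33 and −1.29. In the other reading every sign below would turn. Under the replicate 2 label, that is on the single array so labelled, they were at 0.09 and −0.14, so that array went against its label for the deleted gene, and each gene's replicate 1 values are given apart from it below. URA3, the marker inserted in the mutant, was at −1.40 and −0.82 on the pair and −0.33 under the replicate 2 label, and so was low in the strain that carries it, which goes against the genotype in this reading. The arrays also differed in spread, with SDs of 0.650 and 0.699 for the pair and 0.353 for the array with the replicate 2 label. Over all genes Pearson's r was 0.508 within the pair and 0.159 between replicates, a description across genes that share arrays. Of the 9 genes, 8 had a value on every array and entered the test, and CRZ1 had a value on 1 array only.

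None of the 8 genes measured in both replicates passed the test. In limma with Benjamini-Hochberg adjustment over 4598 genes, 0 of the 8 had an adjusted p under 0.05, their adjusted p running between 0.925 and 0.994, and the share called over all genes was 0%. VHS3 and HAL3, the genes altered by design, did not pass either, with a limma adjusted p of 0.925 each. The mean of VHS3 was −1.09, with a 95% interval of −2.37 to 0.18. Not passing this test therefore does not show that a gene was unchanged. At an unadjusted p under 0.05 the count was 0 of 8 as well, against 222 genes or 4.83% of all tested. Their mean log2 ratios lay between −0.48 (VCX1) and 0.15 (RCN1), with a median of −0.07, against a median of 0.01 over all tested genes. The 95% interval of the mean stayed within 2-fold in either direction for 7 of the 8 genes, as it did for 81.4% of all tested genes. Only for VCX1 did it reach past 2-fold, on the lower side. These intervals rest on 2 replicates, for which the smallest two-sided p of an exact sign-flip test would be 0.5. They give the array with the replicate 2 label as much weight as the pair, although VHS3 was at 0.09 there. Whether that array carries the labelled contrast was not tested, so the intervals do not exclude a 2-fold change in the mutant.

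**Figure D1:**
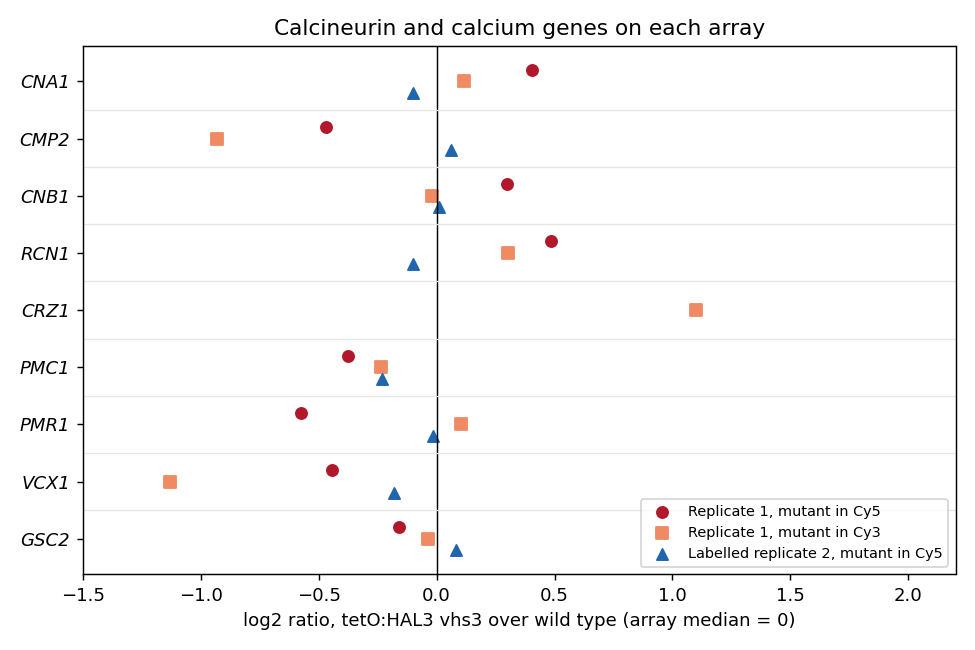
Log2 ratio of mutant over wild type (horizontal axis) of the 9 genes on each array, with the array median at 0. VCX1 and PMC1 lie left of 0 on all 3 arrays, CMP2 lies left on the dye-swap pair only, and CRZ1 has a single point at 1.10.

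Among the calcineurin subunits, the 2 catalytic genes stood on opposite sides of 0 on both arrays of replicate 1 and were both close to 0 under the replicate 2 label. CNA1, on chromosome XII, was at 0.40 with the mutant in Cy5 and 0.11 with the mutant in Cy3, and at −0.10 under the replicate 2 label. Its mean was 0.08 ± 0.25 (SD, n = 2), with a 95% interval of −0.47 to 0.63. CMP2, on chromosome XIII, was at −0.47 and −0.93 on the pair and at 0.06 under the replicate 2 label. On the pair it was thus 1.38-fold and 1.91-fold lower in the mutant, and on the Cy3 array only 5.89% of genes had a lower ratio. Its mean was −0.32 ± 0.54 (SD, n = 2), with a 95% interval of −0.96 to 0.33 and a limma adjusted p of 0.937. CNA1 exceeded CMP2 in log2 ratio by 0.87 and 1.05 on the pair, while under the replicate 2 label the difference was −0.16. This difference between 2 genes was not tested, and it compares their changes, not their levels.

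CNB1, which encodes the regulatory subunit that both catalytic subunits need, was within 0.30 of 0 on each array. It was at 0.30 and −0.02 on the pair and at 0.01 under the replicate 2 label, a mean of 0.08 ± 0.09 (SD, n = 2) with a 95% interval of −0.45 to 0.60. Its largest value came from the Cy5 array of the pair and was not matched on the swapped one.

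RCN1, the calcipressin gene, encodes a regulator that binds calcineurin and is itself raised by Crz1. It was at 0.48 and 0.30 on the pair, that is 1.40-fold and 1.23-fold higher, and at −0.10 under the replicate 2 label. The mean was 0.15 ± 0.35 (SD, n = 2), with a 95% interval of −0.43 to 0.72 and a limma adjusted p of 0.977. The replicates thus differed in sign, and in replicate 1 the Cy5 value stood above 82.2% of genes and the Cy3 value above 69.6%.

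CRZ1, the transcription factor through which calcineurin acts on gene expression, was measured on the swapped array of replicate 1 alone. There it was at 1.10, 2.14-fold higher in the mutant, above 95.1% of the genes on that array and above all 20 of the nearest measured genes on chromosome XIV. On that array 6.1% of genes were at least 2-fold higher. Among the 94 genes that, like CRZ1, had a value on that array only, 20.2% were at least 2-fold higher, and 15 had a higher ratio than CRZ1. With no second value there is no test and no replicate check. The sources used here do not say what a blank stands for.

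**Figure D2:**
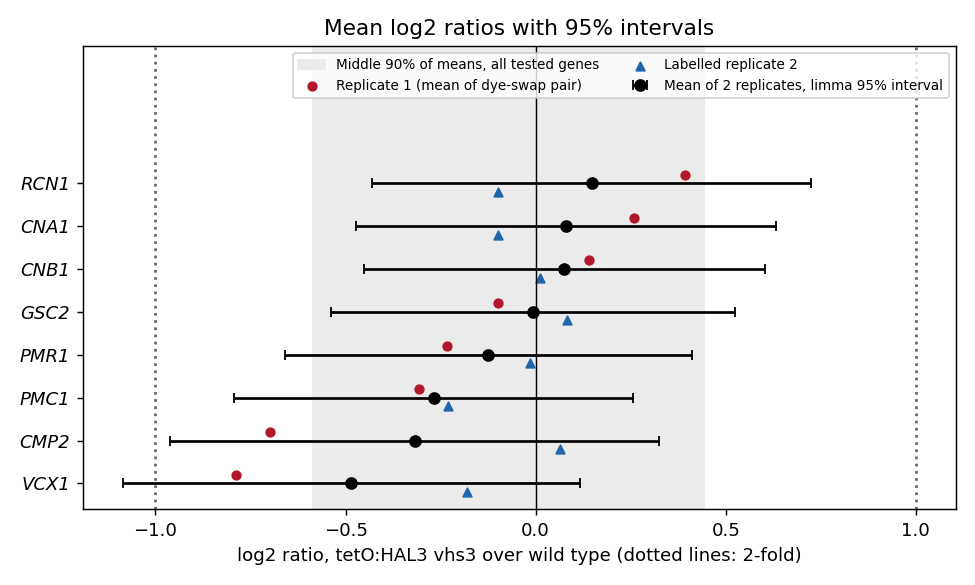
Mean log2 ratio of mutant over wild type (horizontal axis) for the 8 genes with both replicates, ordered by mean. Black bars are limma 95% intervals, coloured points are the 2 replicates, the grey band holds the middle 90% of means over all tested genes and dotted lines mark 2-fold. Every interval covers 0 and only that of VCX1 crosses a dotted line.

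The 3 calcium transport genes were all below 0 in both replicates, by amounts that did not pass the test. For PMR1 this depended on the processing. Its mean was 0.0449 when replicate 1 was taken from the Cy3 array alone. Under the replicate 2 label it was at 0.0314 as deposited and fell below 0 only with centring. Over all genes 24.6% were below 0 in both replicates. Of the 3 genes, 2 (VCX1 and PMC1) were below 0 on all 3 arrays, as were 15.9% of the genes with a value on every array. None of the 8 genes was above 0 on all 3 arrays, against 14.5%.

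VCX1, the vacuolar proton and calcium exchanger whose transport activity calcineurin restrains, had the lowest mean of the 8. It was at −0.44 with the mutant in Cy5 and −1.13 with the mutant in Cy3, and at −0.18 under the replicate 2 label. In folds it was 1.36, 2.19 and 1.13-fold lower in the mutant. The share of genes with a lower ratio was 21.1%, 3.69% and 24.0% in the same order. VCX1 was the 1 gene of the set at least 2-fold lower on any array, a size reached by 5.04% of genes on that Cy3 array. The mean was −0.48 ± 0.43 (SD, n = 2), with a 95% interval of −1.09 to 0.12 and a limma adjusted p of 0.925. Its 2 values in replicate 1, from the same RNA, lay 0.69 apart, a wider gap than that of 68.9% of genes. The lower value thus rests on the Cy3 array, and the other arrays also put it toward the low end.

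PMC1, the vacuolar calcium ATPase that takes up excess calcium and is a standard Crz1 target, was the most even of the set. It was at −0.38, −0.24 and −0.23 in the same order, which is 1.30, 1.18 and 1.17-fold lower. Its mean was −0.27 ± 0.05 (SD, n = 2), the smallest SD among the 8, with a 95% interval of −0.79 to 0.26 and a limma adjusted p of 0.930. The direction of PMC1 was opposite to that of RCN1, another Crz1 target, on both arrays of replicate 1. Under the replicate 2 label both were below 0, at −0.23 and −0.10. GSC2, also a Crz1 target, was below 0 on the pair like PMC1, at −0.16 and −0.04.

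PMR1, the calcium and manganese ATPase of the Golgi, was at −0.57 and 0.11 on the pair and at −0.02 under the replicate 2 label. The pair disagreed in sign, with a gap of 0.68 that exceeded the gap of 68.3% of genes. Its mean was −0.12 ± 0.15 (SD, n = 2), with a 95% interval of −0.66 to 0.41.

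GSC2, the subunit of beta-glucan synthase that calcineurin induces under stress, was at −0.16 and −0.04 on the pair and at 0.08 under the replicate 2 label. Its mean of −0.0078 ± 0.13 (SD, n = 2) was the nearest to 0 of the set and was above 0 under 5 of the alternative settings, with a 95% interval of −0.54 to 0.52. FKS1, the related subunit used in growing cells, was at −0.28, −0.14 and −0.40, below 0 on each array, with a limma adjusted p of 0.925. GSC2 stood above FKS1 in log2 ratio by 0.12, 0.10 and 0.48. Their sequences are related, and cross-binding of transcripts to the probes was not tested. RHO1, the GTPase that activates the synthase, was at 0.11, 0.23 and 0.05.

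Ordered by mean, the 8 genes ran VCX1, CMP2, PMC1, PMR1, GSC2, CNB1, CNA1 and RCN1. The 95% intervals of all neighbours in this order overlapped, and so did those of VCX1 and RCN1 at its ends. Of the 8, 1 (CNB1) was above 0 in both replicates, 3 were below in both and 4 had opposite signs. Of all tested genes 26.6% were above 0 in both, 24.6% below in both and 48.7% of opposite sign. All 8 had a larger ratio, in size, in replicate 1 than under the replicate 2 label, as had 65.9% of all tested genes, with median sizes of 0.28 and 0.09. Over all tested genes those median sizes were also 0.28 in replicate 1, and 0.16 under the replicate 2 label. Of the 28 tested genes of the wider list below, 12 had the larger size in replicate 1, with median sizes of 0.19 and 0.13. No gene of the set reached 2-fold on the Cy5 array of replicate 1 or under the replicate 2 label, where 9.22% and 2.73% of genes did so in either direction.

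**Figure D3:**
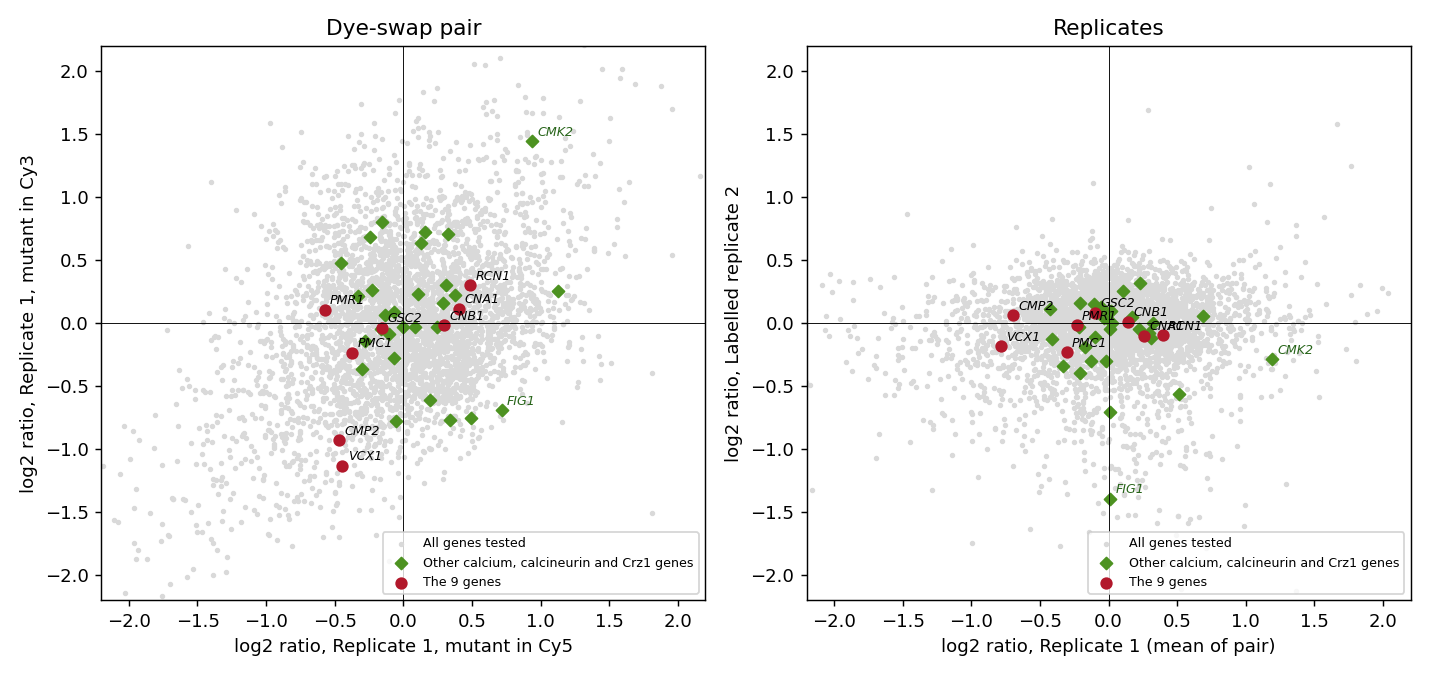
Log2 ratios of mutant over wild type in the dye-swap pair (left) and in the 2 replicates (right), with all tested genes in grey, the 9 genes in red where both values exist and the other calcium, calcineurin and Crz1 genes in green. Axes end at 2.2 in either direction and leave out 50 genes on the left and 34 on the right. CMP2 and VCX1 lie at the lower left in the pair, and CMK2 lies at the upper right in the pair and below 0 under the replicate 2 label.

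Position along the chromosome was set beside the values, because chromosomes differed in their medians on these arrays. PMC1, PMR1 and GSC2 lie on chromosome VII, which had medians of −0.10 and 0.16 on the swapped pair and −0.04 under the replicate 2 label. Relative to that chromosome PMC1 was at −0.28, −0.39 and −0.19, so it was lower than its chromosome on each array. The 20 nearest measured genes around PMC1, 10 on either side, had medians of −0.06, 0.18 and −0.05, and 7, 3 and 5 of them were lower than PMC1. VCX1 lies on chromosome IV, whose medians were 0.01, −0.00 and −0.02. The medians of its 20 neighbours were 0.18, −0.07 and −0.06, and 4, 1 and 4 of them were lower than VCX1. For CMP2, 6 and 1 of 20 neighbours were lower on the pair and 10 under the replicate 2 label, which placed it in the middle of its neighbours there. With each array centred on the gene's own chromosome, the means were −0.48 for VCX1, −0.32 for CMP2 and −0.26 for PMC1.

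**Figure D4:**
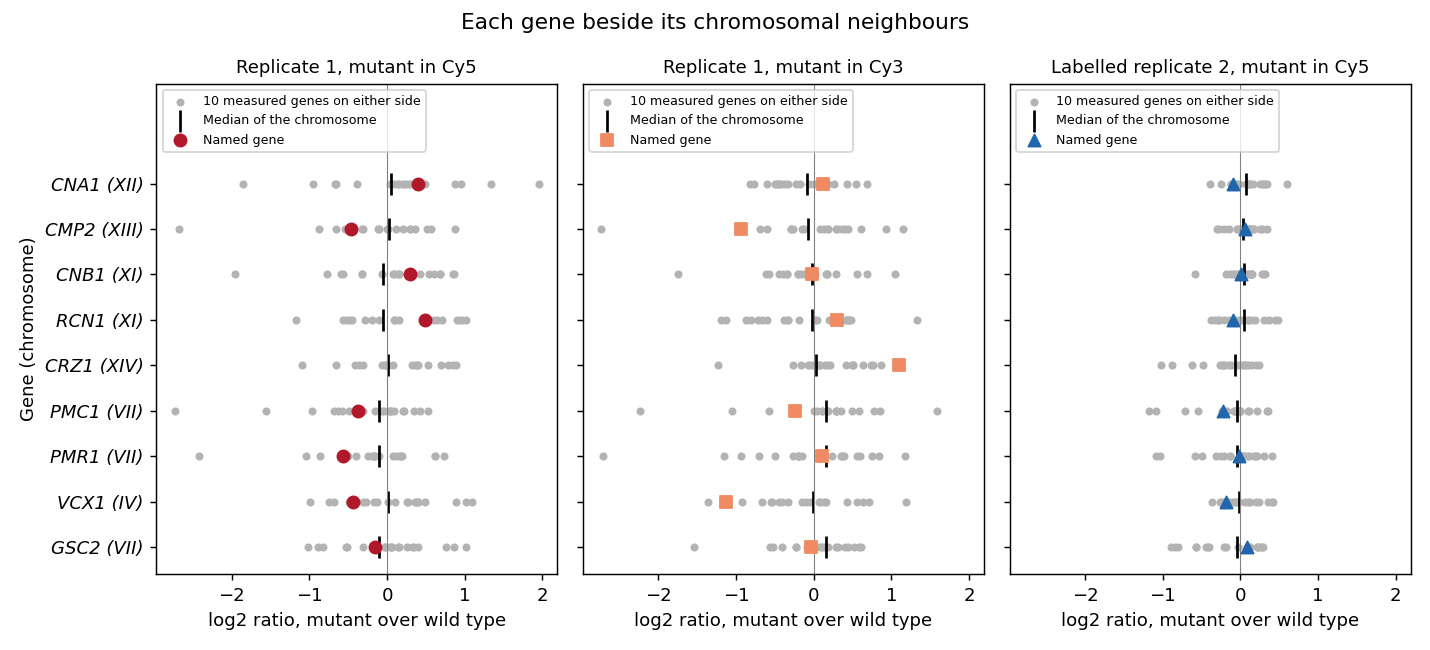
Log2 ratio of mutant over wild type (horizontal axis) of each gene (coloured), of the 10 measured genes on either side of it (grey) and of its chromosome's median (black tick), in a panel per array. VCX1 and CMP2 lie near the low end of their neighbours with the mutant in Cy3, and the 8 genes measured there lie inside the neighbours' range under the replicate 2 label.

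A wider list of 37 other genes of calcium transport, of the calcineurin circuit, of Crz1 targets and of glucan synthase was set beside the 9. Of these, 28 had a value in both replicates, and 0 of the 28 passed the limma test in either direction, also at an unadjusted p under 0.05. Their median was 0.01 in replicate 1 and −0.04 under the replicate 2 label, against 0.02 and 0.00 over all tested genes. Of the 28, 6 were above 0 in both replicates, 8 below in both and 13 of opposite sign, against 26.6%, 24.6% and 48.7% of all tested genes. The remaining gene, YVC1, was at exactly 0 under the replicate 2 label and so fell in none of these groups.

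Among 14 partners and regulators of calcineurin, 11 were tested, with medians of 0.01 in replicate 1 and −0.04 under the replicate 2 label. CMD1, which encodes calmodulin, was at 0.29 and 0.16 on the pair and 0.32 under the replicate 2 label. RCN2, the sister of RCN1, was at −0.00, −0.03 and −0.30. MCK1, a protein kinase, was at −0.07, −0.27 and −0.19. FPR1, the target of the calcineurin inhibitor FK506, and SLM1 were blank on every array, and FRT2 had a value on 1.

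Among the 15 Crz1 targets listed besides the set, of which RCN2 and CMK2 are also among the partners, 11 were tested. Their medians were −0.02 in replicate 1 and −0.11 under the replicate 2 label, and 3 were above and 4 below 0 in both. These medians leave out targets that were blank under the replicate 2 label. Of those, GYP7 was at 0.16 and 0.72 and BAG7 at 0.13 and 0.63 on the pair, and ENA5 was at −0.13 on its Cy3 array only. NCW2, a cell wall protein gene, was at 1.13, 0.25 and 0.05. CRH1, a transglycosylase of the cell wall, was at −0.05, −0.77 and −0.13, and MEP1, an ammonium permease, at −0.10, −0.09 and −0.11. PHO89, the sodium and phosphate cotransporter that Crz1 and Pho4 both activate, was at 0.24, −0.03 and 0.26. It was picked out after its values were seen, as were CMK2 and ENA2. ENA1 was blank on every array, while its neighbouring copy ENA2 was at −0.16, −0.05 and 0.15. The ENA genes are close copies, and their probes may share transcripts.

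CMK2, a calmodulin-dependent kinase gene raised by Crz1, had the highest mean of the 28. It was at 0.93 and 1.44 on the pair, or 1.91-fold and 2.72-fold higher in the mutant, and at −0.29 under the replicate 2 label. Its mean was 0.45 ± 1.04 (SD, n = 2), with a limma adjusted p of 0.933, so the spread between replicates was wider than the mean.

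Other calcium transport genes were measured unevenly. SPF1, a P-type ATPase of the endoplasmic reticulum that affects calcium handling, was at −0.30, −0.36 and −0.34, the most even values of the 6 tested, with a mean of −0.34 ± 0.01 (SD, n = 2), a 95% interval of −0.86 to 0.19 and a limma adjusted p of 0.925. For the plasma membrane calcium channel, MID1 was at −0.13, 0.07 and 0.04, while CCH1 had a value of −0.55 on the Cy5 array of replicate 1 only. YVC1, the vacuolar calcium release channel, was at 0.09, −0.03 and 0.00, and so was also near 0 on each array. CCH1, MID1 and YVC1 were picked out after their values were seen.

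The genes whose values lay nearest to those of VCX1, the gene of the set with the largest mean in size, were sought among 4257 others with a value on every array. By Euclidean distance over the 3 log2 ratios the nearest was GPD1, glycerol-3-phosphate dehydrogenase, at −0.36, −1.13 and −0.14 (distance 0.09). Next were HSP31, a chaperone that also detoxifies methylglyoxal, at −0.56, −1.18 and −0.14 (distance 0.13), and UGP1, which makes UDP-glucose, at −0.46, −0.94 and −0.15 (distance 0.20). With 3 arrays of a single comparison, this nearness says only that the values are alike.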

How the data were processed

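The authors deposited 1 log2 ratio per gene and array, while the sources used here do not give the scanner settings or how background, spots and normalization were handled. The scale was read from the values: as log2 in the deposited direction, 100% of ratios were whole multiples of 0.001 to the table's rounding, against 11.6 to 13.2% with the sign turned. As deposited, the pair correlated positively, so the swapped array was not turned again. Mutant over wild type was the reading chosen, from VHS3 and HAL3 on that pair. Array medians as deposited were 0.0229, 0.0072 and 0.0468. Without intensities, how far a spot stood above background is unknown. The number of arrays limits the precision.

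Each array, with 4894, 4822 and 4728 ratios in turn, was centred on its median. The pair of replicate 1 was averaged, using 1 value where the other was blank, and the mean of 2 replicates was tested against 0 across 4598 genes with limma 3.58.1 in R 4.3.3 (lmFit, eBayes, two-sided, prior degrees of freedom 5.15), with Benjamini-Hochberg adjustment at 0.05. The procedure was tested on simulated data. Names and chromosomes came from RefSeq's table of the R64 assembly, which matched 5638 of 6212 identifiers by locus tag and all 9 genes. Its order of genes gave the neighbours. The sources used here name no build for the array.

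The genes and lists were chosen with earlier results of these data known. Genes named are the 9, HAL3, VHS3, URA3, FKS1, in each other list up to 4 with the largest mean among those of 1 sign on all 3 arrays, and the 3 nearest to the gene with the largest mean in size. Others are said to be picked out after their values were seen, or are named for their blanks. Alternatives changed the treatment of the pair and of dye, centring, scaling, the variance prior and the filter, and left out each replicate.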

Additional observations from a re-analysis of the deposited data

How the results depend on the processing

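None of the 8 genes passed the threshold under any of the 10 alternatives that give a test, with adjusted p between 0.316 (VCX1 with dye as a coefficient) and 0.999. Of 80 such values 74 kept their sign. With replicate 1 taken from the Cy3 array only, CNB1 was at −0.0038, PMR1 at 0.0449 and GSC2 at 0.0225. GSC2 was also at 0.0231 without centring, at 0.0351 with arrays scaled to equal spread and at 0.0417 after quantile normalization. Over all genes, 16 passed with the 3 arrays fitted as if independent, 13 with replicate 1 from the Cy3 array only, 4 with equal spread and 12 after quantile normalization, against 0 otherwise. The first of these counts the dye-swap pair as separate replicates. With replicate 1 or the array with the replicate 2 label left out in turn, the value of VCX1 ranged from −0.79 to −0.18 and that of PMC1 from −0.31 to −0.23, while CNA1 (−0.10 to 0.26), CMP2 (−0.70 to 0.06), RCN1 (−0.10 to 0.39) and GSC2 (−0.10 to 0.08) changed sign, as values with no test. The median of the 8 ranged from −0.166 to −0.0568, that of the calcineurin partners from −0.0439 to 0.00985 and that of the Crz1 targets from −0.110 to −0.0174. From the 2 mutant-in-Cy5 arrays alone, the medians of all other listed genes, of the partners and of the Crz1 targets were −0.0680, −0.103 and 0.0983. With replicate 1 from the Cy3 array only, the median of the 8 was above 0, at 0.0018. In that setting those of all other listed genes and of the partners were 0.0530 and 0.171, and with dye as a coefficient that of the partners was 0.0969. The cause of these shifts was not tested.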

Other observations

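A few genes of the wider list, picked out after their values were seen, changed sign or size between arrays. FIG1, a membrane protein of calcium uptake in mating, had 0.72 and −0.69 on the swapped pair and −1.39 under the replicate 2 label, the lowest value of the list there, with a gap within the pair wider than that of 96.4% of genes. GDT1, a calcium and manganese transporter of the Golgi, was at 0.33 and 0.71 on the pair and −0.56 under the replicate 2 label. CMK1, the sister kinase of CMK2, was at −0.07 and 0.09 on the pair and −0.70 under the replicate 2 label. None of the 3 passed the limma test, whose adjusted p was 0.925 for FIG1 and CMK1 and 0.993 for GDT1. SCW10, a cell wall Crz1 target, was at 0.50 and −0.75 on the pair and −0.30 under the replicate 2 label. CPR1, the cyclophilin through which cyclosporin A acts on calcineurin, was at 0.34, −0.77 and −0.03 in the same order. Both differed in sign within the pair, and SCW10 also between the arrays with the mutant in Cy5.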
